A study of Arabidopsis thaliana with 20 samples.

Results

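Wounded Arabidopsis thaliana seedlings, cut and then kept for 10 min (W10min), were compared with untreated seedlings of the same wounding series (wounding time 0, WT0) by ChIP-seq of HSFA1d-GFP. In both groups, samples of about 60 whole seedlings, 2 weeks old, were grown at 22 °C in constant light. All carried pHSFA1d::HSFA1d-GFP, a GFP fusion driven by the HSFA1d promoter, in a background labelled as a mixture of Columbia-0 and Wassilewskija. W10min seedlings had received repeated razor blade cuts and then stayed on MS medium, and chromatin was precipitated with an antibody against GFP. Each group had 1 ChIP and 1 input sample and 1 deposited list of peaks, so no difference below has a replicate check and no test over samples was possible. A peak was called gained when it lay in the W10min list and overlapped no WT0 peak, and lost when it lay in the WT0 list and overlapped no W10min peak. Of 1367 W10min peaks, 924 were gained and 443 were shared, and of 1405 WT0 peaks, 960 were lost and 445 were shared. The 6 lists of the whole series held 7502 peaks. Since whole seedlings were used, more binding per cell and binding in more cells cannot be told apart, and cutting wounds only some of the cells.

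HSFA1 proteins are the master heat shock factors of Arabidopsis. In unstressed cells chaperones of the HSP70 and HSP90 families hold them inactive. When unfolded proteins draw these chaperones away, the factors form trimers, enter the nucleus and bind heat shock elements close to the starts of chaperone genes and of other heat shock factors such as HSFA2. Wounding is better known for another set of genes, those of jasmonate, the hormone of leaf wounding, and the early transcription factors of touch and injury.

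Most of the lists consisted of weak peaks, and the gained peaks reached higher values than the lost ones. The authors' peak caller gave each peak a fold enrichment and a q-value, which is the false discovery rate within its own list. At a q of at most 0.05 there were 421 gained and 380 lost peaks, with median folds of 2.09 in the W10min list and 2.00 in the WT0 list. At a q of at most 1e-05 there were 63 gained and 16 lost peaks. Just inside the split at 0.05, the gained peak with the highest q had 0.0486 (1.89-fold), and just outside it the lowest was 0.0511 (1.73-fold). For lost peaks those values were 0.0456 (1.88-fold) and 0.0532 (1.84-fold). The W10min list was the stronger one as a whole, with 183 peaks at a q of at most 1e-05 against 90 in the WT0 list, and in the dense chromosome 2 windows that were left out the median fold was 4.39 in W10min and 3.53 in WT0. With 681 peaks taken from each list, gained and lost peaks numbered 472 and 471. A fold ranks peaks only within its own list.

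**Figure D1:**
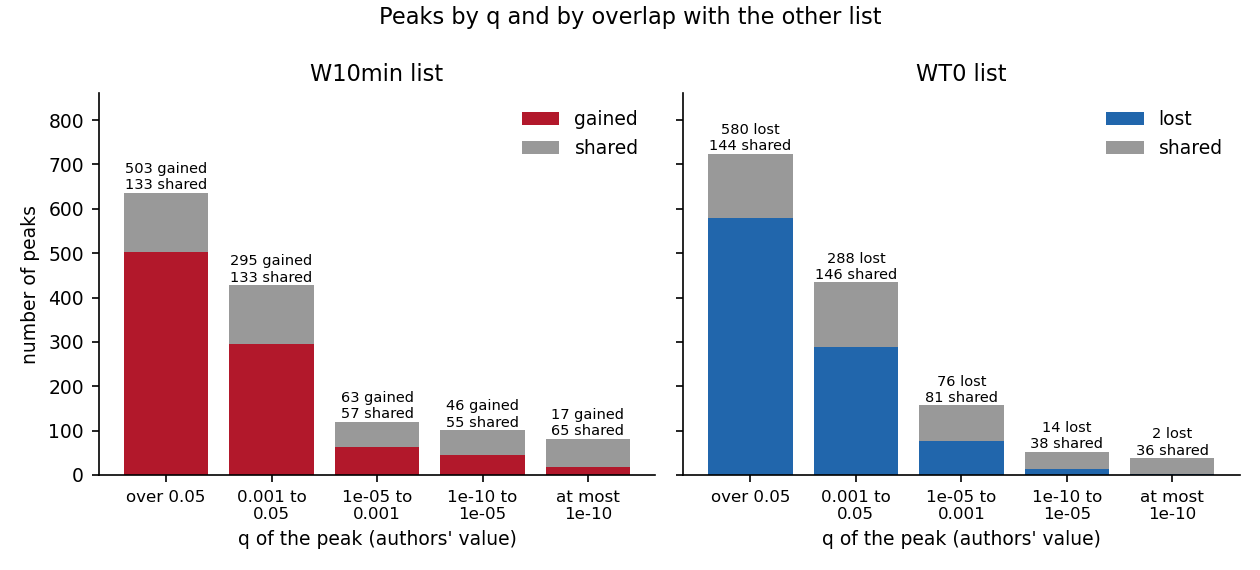
Numbers of peaks (vertical axis) by q of the peak (horizontal axis), in the W10min list on the left and the WT0 list on the right. Coloured bars are gained (red) and lost (blue) peaks and grey bars are shared peaks. At a q of at most 1e-10 there are 17 gained and 2 lost peaks.

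At the level of genes the gained and lost sets were of similar size, and the strong ones were not. Gained peaks with a q of at most 0.05 named 613 of 27444 coding genes (2.23%), in the gene or its promoter, while lost peaks named 541 (1.97%). Of these genes, 530 gained ones had no WT0 peak of any q and 83 had another WT0 peak. Of the lost ones, 457 had no W10min peak and 84 had one. At a q of at most 1e-05 the counts were 89 gained genes (0.324%) and 20 lost genes (0.0729%).

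Chaperone and heat shock factor genes were named often by gained peaks. Over 6 lists of such genes with 96 members, 19 members (19.8%) had a gained peak at a q of at most 0.05, beside 2.23% of all coding genes. At this q 0 members had a lost peak, beside 1.97% of all coding genes. With so low a share, 0 lost members says little, here and in the single chaperone lists below. The median fold of the 19 peaks was 2.63, beside 2.09 for all gained peaks at this q. Shared W10min peaks at this q named 24 of the 96 members, beside 441 of 27444 coding genes, so a high share was not particular to gained peaks. At any q, a W10min peak named 46 members, of which 24 had a gained one. It named 1881 coding genes, of which 1341 had a gained one. At any q, 24 members had a gained peak (all coding genes 4.89%) and 4 had a lost one (4.94%): HSC70-1 and HSC70-2 on the same peak, CHL-CPN10 and BAG7. Of the 19 gained peaks, 18 lay across the start of the gene, with centres from -168 bp (upstream) to 59.5 bp (downstream) of it, and 1 lay in a promoter. Where a shared peak had to overlap by 50% of both peaks, 26 members were gained and 6 lost.

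The organelle chaperonins held the strongest gained peaks of the comparison. These are the barrel-shaped folding machines of chloroplasts and mitochondria and their lids. The gained peak with the highest fold was that of CPN60B3 (AT5G56500), a chloroplast chaperonin subunit, at chr5:22873451-22873795 of TAIR10, enriched 5.54-fold (q 1.35e-33). It lay across the gene start and met a peak in the heat and in the 3 h wounding list. CPN10 (AT1G14980), a mitochondrial lid protein, followed with 4.79-fold and a q of 2.09e-25 at chr1:5166455-5166916, and this was the single gained chaperone peak of the 19 that also met a peak of the untreated heat control. CPN20 (AT5G20720), the chloroplast co-chaperonin, had 3.85-fold and a q of 4.87e-16, and HSP60 (AT3G23990), the mitochondrial chaperonin, had 2.16-fold and a q of 0.00274. In all, 4 of 12 members had a gained peak at a q of at most 0.05 and 0 a lost one (all coding genes 2.23% and 1.97%). HSP60-2 had a weaker gained peak (q 0.507). A strong shared peak stood beside them: CPN60B2 (AT3G13470), the close relative of CPN60B3, had 7.29-fold in W10min and 3.70-fold in WT0, and the treatment of reads that fit both copies is not given in the sources used here.

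Among HSP70 genes, the main folding chaperones, 3 of 18 had a gained peak at a q of at most 0.05 and 0 a lost one (all coding genes 2.23% and 1.97%). HSP70-4 (AT3G12580), a strongly heat-inducible cytosolic HSP70, had 3.58-fold with a q of 1.28e-13 at chr3:3993663-3994088. HSC70-2 (AT5G02490) had 3.24-fold with a q of 8.99e-11, and HSP70T-2 (AT2G32120), a truncated member, had 1.96-fold with a q of 0.0319. Constitutive members had peaks in both lists: HSC70-1 (AT5G02500) carried the highest fold of the W10min list, 8.30 (q 1.01e-68), beside 4.61 in WT0 (q 6.07e-26), and a further gained promoter peak with a q of 1. HSC70-3 (AT3G09440) had 7.16 in W10min and 3.21 in WT0, and the chloroplast cpHSC70-2 (AT5G49910) had 7.16 in W10min and 2.67 in WT0.

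HSP90 genes, whose products mature signalling proteins, likewise had both gained and shared peaks. HSP90.5 (AT2G04030), the chloroplast HSP90, had a gained peak of 3.65-fold (q 3.27e-14) at chr2:1281593-1281943. HSP90.1 (AT5G52640), the heat-inducible cytosolic form, had one of 2.43-fold (q 6.77e-05). The constitutive HSP90.2 (AT5G56030) had 7.29-fold in W10min and 4.12-fold in WT0, and a peak that names both HSP90.3 and HSP90.4 had 7.56-fold in W10min and 2.31-fold in WT0. These 3 genes are near-identical neighbours, so reads may have been placed at one for another. In all, 2 of 10 HSP90 and HSP100 genes had a gained peak and 0 a lost one at a q of at most 0.05 (all coding genes 2.23% and 1.97%). HSP101, the disaggregase, was shared at 3.44-fold in W10min.

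Co-chaperones, which hand clients to HSP70 and HSP90 or set their ATP cycle, had 5 of 17 members gained and 0 lost up to a q of 0.05 (all coding genes 2.23% and 1.97%). AHA1L (AT3G12050), of the Aha1 family of HSP90 activators, had 3.71-fold (q 8.19e-15). J2 (AT5G22060), a DnaJ protein that stimulates HSP70, had 3.31-fold (q 2.52e-11). HOP2 (AT1G62740) and HOP3 (AT4G12400), adaptors between HSP70 and HSP90, had 2.97-fold (q 1.18e-08) and 2.63-fold (q 3.17e-06). FES1A (AT3G09350), an HSP70-binding protein needed in heat, had 2.16-fold (q 0.00274). HIP1 (AT4G22670), an HSC70-interacting protein that was outside the list, had 3.71-fold (q 8.19e-15) at chr4:11917916-11918220. ROF1 (AT3G25230), an HSP90-binding immunophilin, was shared, with 5.00-fold in W10min and 2.12-fold in WT0.

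The small heat shock protein genes, whose products keep denatured proteins from clumping, had weaker gained peaks. Up to a q of 0.05, 2 of 18 members were gained and 0 were lost (all coding genes 2.23% and 1.97%). The gained ones were HSP17.4B (AT1G54050) with 2.09-fold (q 0.00642) and HSP17.8 (AT1G07400) with 1.96-fold (q 0.0319). Another 3 had a gained peak above that q: HSP17.6II and HSP17.6A on 1 peak of 1.76-fold (q 0.27), and HSP17.6B-CI with 1.62-fold (q 0.909). In 11 of 18 members neither list had a peak.

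Heat shock factor genes had 3 of 21 members gained, all of low fold, and 0 lost up to a q of 0.05 (all coding genes 2.23% and 1.97%). HSFB2A (AT5G62020) had 2.23-fold (q 0.00114), HSFA7B (AT3G63350) had 2.09-fold (q 0.00642), and HSFB1 (AT4G36990) had 2.03-fold (q 0.0145) beside a shared peak of its own. The class B members are mostly repressors that heat induces. HSFA2 (AT2G26150), the factor that prolongs the heat response, was shared, with 7.22-fold in W10min (q 3.1e-54) and 3.21-fold in WT0 (q 1.1e-11) on a peak that also names FTSH4. The HSFA1D locus itself (AT1G32330) had a peak in both lists, with 2.30-fold in W10min and 1.88-fold in WT0, but the seedlings carry an added copy of it, so this peak checks nothing.

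Genes of protein removal were also gained. CDC48 is the segregase that pulls ubiquitin-marked proteins apart for the proteasome. CDC48A (AT3G09840) had a gained peak of 4.46-fold (q 6.51e-22), ranking after CPN60B3 and CPN10, at chr3:3019059-3019378, and CDC48C (AT5G03340) had 2.50-fold (q 2.5e-05). CDC48B (AT3G53230) had 1.89-fold with a q of 0.0674, outside the split. PUX5 (AT4G15410), a UBX-domain adaptor of CDC48 that was in no list, had 2.70-fold (q 1.09e-06), and the polyubiquitin gene UBQ10 had a promoter peak of 2.03-fold (q 0.0145). In the list of CDC48 and polyubiquitin genes 3 of 8 members were gained and 0 lost up to this q (all coding genes 2.23% and 1.97%). Above it, UBQ10 also had 1 gained and 2 lost peaks and UBQ3 a gained one. Of 9 folding genes of the endoplasmic reticulum, 0 were gained and 0 lost at this q, and CRT1, CRT2 and ERDJ3A had peaks above it.

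**Figure D2:**
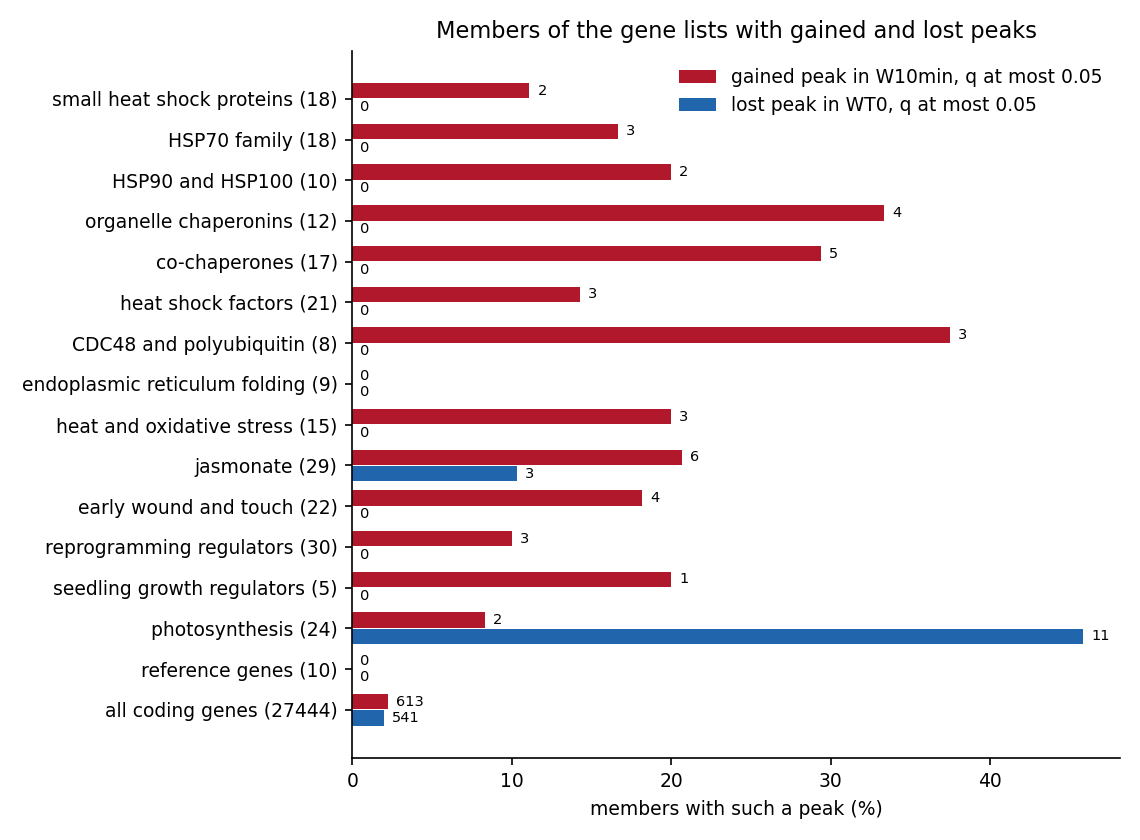
Share of the members of each gene list (horizontal axis, percent) with a gained W10min peak (red) or a lost WT0 peak (blue) at a q of at most 0.05, with the number of members behind each bar and list sizes in parentheses. Chaperonins reach 4 of 12 gained with 0 lost, photosynthesis genes 2 of 24 gained with 11 lost, and all coding genes 613 gained with 541 lost.

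The strong gained peaks were mostly sites that also carry a peak after heat. The heat list (HS) comes from seedlings of the same line kept at 37 °C for 30 min, with its own untreated control (HT0), and both lists pool 3 ChIP samples. The HS peaks were not used to choose gained or lost peaks. Of gained peaks with a q of at most 0.05, 164 of 421 met an HS peak (39%, exact 95% binomial interval 34.3% to 43.8%), and of lost peaks 52 of 380 did (13.7%, 10.4% to 17.6%). The intervals do not overlap, but they cover counting error over peaks only, and the HS list is the longest of the 6. For the untreated HT0 list the shares were 48 of 421 gained (11.4%) and 57 of 380 lost (15%). Of shared W10min peaks, 195 of 310 met HS (62.9%), and of shared WT0 peaks 177 of 301 did (58.8%). At any q, 34.7% of all W10min peaks met HS, beside 238 of 924 gained ones (25.8%). Of all WT0 peaks 24.8% did, beside 108 of 960 lost ones. Gained peaks thus met HS less often than their whole list, and the whole lists also differed.

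The share that met HS went with the strength of the gained peak. It was 16 of 17 at a q of at most 1e-10 (94.1%), 30 of 46 at a q over 1e-10 and up to 1e-05 (65.2%), 34 of 63 up to 0.001 (54.0%), 84 of 295 up to 0.05 (28.5%) and 74 of 503 above 0.05 (14.7%). Lost peaks had lower shares in each of these classes, from 0 of 2 and 4 of 14 (28.6%) to 56 of 580 above 0.05 (9.66%). The 1 gained peak of the strongest class without an HS peak was that in AT2G45180, whose deposited row is 3 bases wide. The pattern also held by position: of gained peaks across a gene start 70 of 119 met HS (58.8%) against 14 of 90 lost ones (15.6%), while of those in promoters alone 42 of 163 gained (25.8%) and 21 of 203 lost (10.3%) did. Peaks at transposable element genes did not show this, with 30 of 52 gained (57.7%) and 13 of 20 lost (65.0%) meeting HS.

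**Figure D3:**
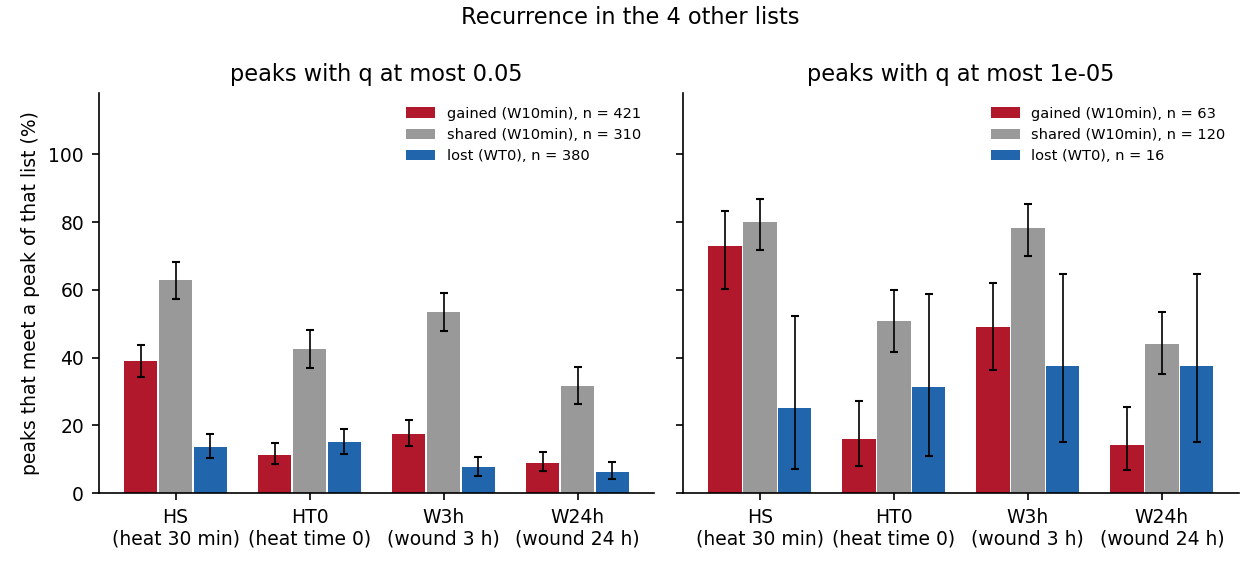
Share of gained (red), shared (grey) and lost (blue) peaks that overlap a peak of the heat list, the untreated heat control, and the 3 h and 24 h wounding lists (vertical axis, percent), at a q of at most 0.05 on the left and 1e-05 on the right. Bars carry exact 95% binomial intervals over peaks. At 1e-05, 46 of 63 gained (73%) and 4 of 16 lost peaks (25%) meet HS.

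All 19 gained chaperone and heat shock factor peaks at a q of at most 0.05 met an HS peak, beside 39% of all gained peaks at this q, and 1 met an HT0 peak. Of the same 19, 12 met a peak of the list taken 3 h after wounding (W3h), beside 17.6% of all gained peaks, and 3 met the 24 h list (W24h), beside 9.03%. Of all lost peaks at this q, 7.63% met W3h and 6.32% met W24h. None of the 3 heat shock factor peaks met W3h, while 4 of 5 co-chaperone and 3 of 4 chaperonin peaks did. All 3 had a q over 0.001, a class in which 30 of 295 gained peaks (10.2%) met W3h. The co-chaperone and chaperonin peaks without W3h, at FES1A and HSP60, were of the same class, so families and peak strength cannot be told apart here. Of all gained peaks with a q of at most 1e-05, 46 of 63 met HS (73%), 10 met HT0 (15.9%), 31 met W3h (49.2%) and 9 met W24h (14.3%). Of lost ones 4 of 16 met HS (25%), 5 met HT0 (31.2%), and 6 each met W3h and W24h (37.5%).

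Outside transposable element genes, 52 gained peaks had a q of at most 1e-05, and 41 of them met HS, 4 met HT0 and 25 met W3h. Of the 63 gained peaks with this q, 16 named a member of any list and 47 named none. SK18 (AT1G10230), an SKP1-like subunit of ubiquitin ligases, had 3.78-fold (q 2.01e-15) at chr1:3354949-3355646. PHB2 (AT1G03860), a prohibitin of the mitochondrial inner membrane, had 3.51-fold (q 4.95e-13). A promoter peak of the DnaJ gene AT2G20560 had 2.70-fold (q 1.09e-06), UBC2 (AT2G02760), a ubiquitin-conjugating enzyme, had 2.77-fold (q 3.63e-07) and SR30 (AT1G09140), a splicing factor, had 2.63-fold (q 3.17e-06). AGO2 (AT1G31280), an Argonaute of small RNA silencing, and MED19A, a subunit of the Mediator complex, had 2.90-fold and 2.77-fold. All 7 met HS.

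FIB (AT4G04020), a fibrillin of chloroplast lipid bodies, AGP15 (AT5G11740), an arabinogalactan protein, and CDF1 (AT5G62430), a DOF factor that represses flowering, each had 3.17-fold (q 3.14e-10). The glutathione transferase genes GSTU5 (AT2G29450) and GSTF8 (AT2G47730) had 3.11-fold (q 1.07e-09) and 2.57-fold (q 9.02e-06). BHLH92 had a promoter peak of 3.04-fold (q 3.6e-09), and TPR10 shared a peak of 2.77-fold with the promoter of ANX1. Further peaks that met HS lay at AT1G21350 with GLTP2 (3.65-fold), AT4G30490 with AT4G30500 (3.58-fold), AT2G43630 with AT2G43620 (3.44-fold), AT2G46735 (3.24-fold), the AT3G55573 group (3.17-fold), and IRT3 with AT1G60970 and GA20OX4 (2.97-fold). AT2G32760 with SUMO5 and AT3G53830 (2.84-fold each), AT3G15770 with MBD11 (2.70-fold), and ARF3, the ADP-ribosylation factor (2.57-fold), complete those that met HS outside the lists. The peak of the AT2G23118 group (2.57-fold) met W24h and none of the other lists. Where neighbouring genes face each other, 1 peak names several, and the file does not say which the site belongs to.

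In the list of heat and oxidative stress genes 3 of 15 were gained and 0 lost up to a q of 0.05 (all coding genes 2.23% and 1.97%), each with a q of at most 1e-05 and across the gene start. DREB2A (AT5G05410), a drought and heat transcription factor, had 2.90-fold (q 3.78e-08) at chr5:1601925-1602232. ZAT6 (AT5G04340), a zinc finger factor, had 2.70-fold (q 1.09e-06). MBF1C (AT3G24500), a coactivator needed for heat tolerance, had 2.63-fold (q 3.17e-06). All 3 met HS, and ZAT6 also met W3h and W24h. Above the split, gained peaks lay at CAT2 (and within MBF1C) and lost ones at CAT1 with CAT3 and at GOLS1.

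**Figure D4:**
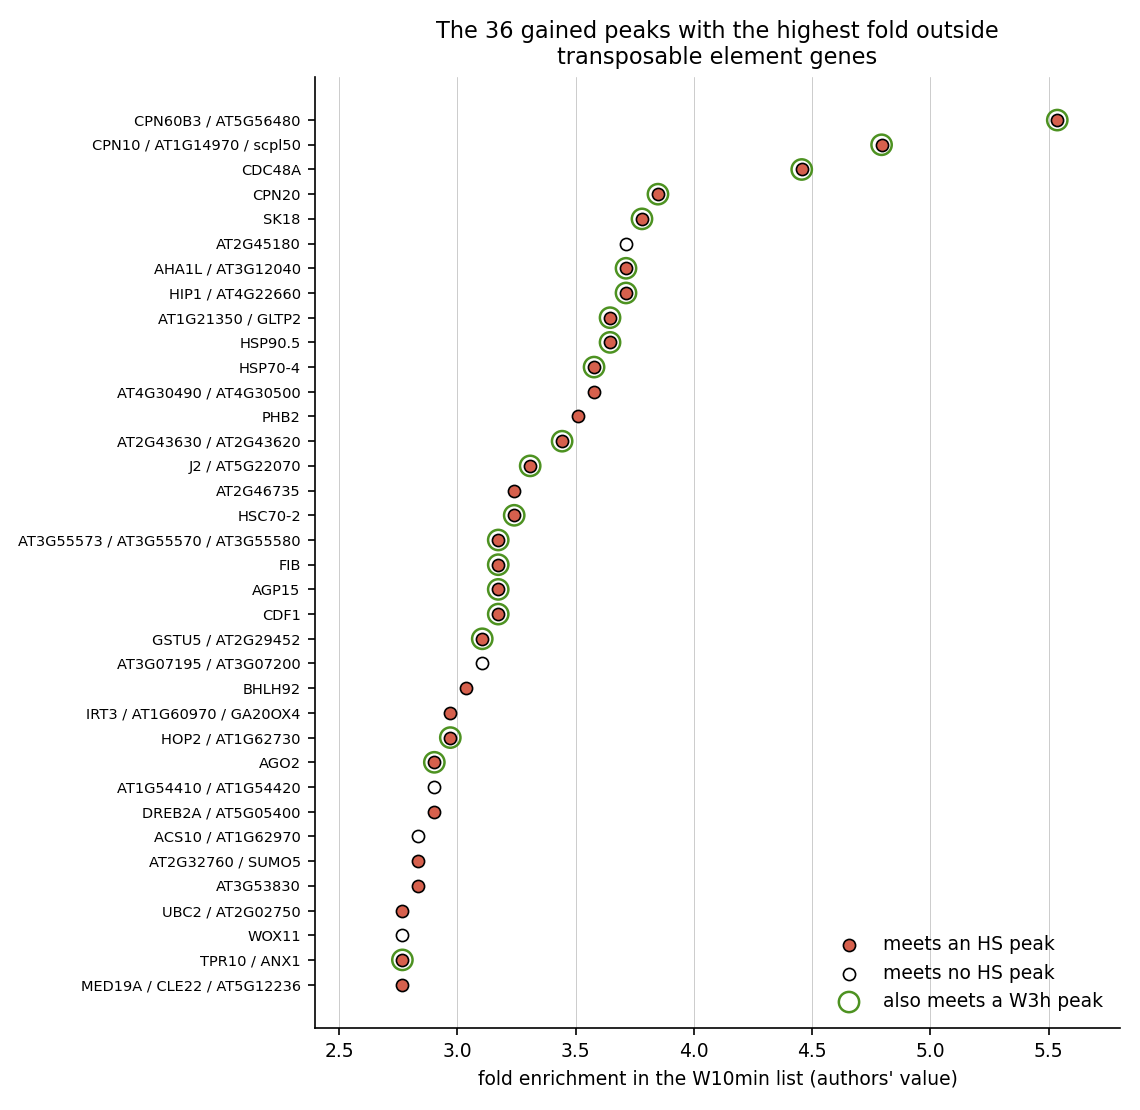
Fold enrichment in the W10min list (horizontal axis, authors' value) of the 36 gained peaks with the highest fold outside transposable element genes, with up to 3 genes that each peak names. Filled points meet an HS peak, open points do not, and green rings mark a W3h peak. CPN60B3 leads with 5.54, and 31 points are filled.

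Jasmonate and early wound genes had gained peaks too. These were weaker than the chaperone peaks, lay more in gene bodies and met heat peaks less often than the chaperone peaks did. Of 29 jasmonate genes, 6 were gained (20.7%, all coding genes 2.23%) and 3 were lost (10.3%, all coding genes 1.97%) at a q of at most 0.05. With both lists limited to 1e-05, 1 jasmonate or early wound gene was gained and 1 was lost. The 6 gained members held 8 peaks, of which 5 lay within genes and 2 met HS, both of them at JAZ1. Low shares were also seen over all genes: 84 of 295 gained peaks with a q over 0.001 and up to 0.05 met HS (28.5%). Of gained peaks inside genes only, 9 of 39 did (23.1%). JAZ1 (AT1G19180), a repressor of jasmonate responses that jasmonate itself induces, had 3 gained peaks: 2.57-fold in the promoter (q 9.02e-06), 1.96-fold across the gene start (q 0.0319) and 2.16-fold within the gene (q 0.00274). The promoter peak also met a peak of the untreated HT0 list.

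The other gained jasmonate members were biosynthesis genes. OPCL1 (AT1G20510), a ligase of the last steps, had 2.36-fold across the gene start (q 0.000178). AOS (AT5G42650), allene oxide synthase, had 2.23-fold within the gene (q 0.00114) and, elsewhere in the gene, a lost peak of 1.88-fold (q 0.0381). The lipoxygenases LOX4 and LOX3 had 2.03-fold (q 0.0145) and 1.96-fold (q 0.0319), and the reductase OPR3 1.96-fold (q 0.0319), all within the gene. Besides AOS, the lost members were the repressors JAZ10 (AT5G13220), with 2.24-fold within the gene (q 0.000352), and JAZ2 (AT1G74950), with 1.94-fold in the promoter (q 0.0218). Above the split, JAZ3, JAZ6 and MYC2 had gained peaks with q from 0.27 to 1, and JAZ6 also had 2 lost ones. No gained jasmonate peak met W3h, but at any q only 10.1% of all gained peaks did, so over so few peaks this says little. The direction was mixed within the family.

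Of 22 early wound and touch genes, 4 were gained (18.2%, all coding genes 2.23%) and 0 lost (all coding genes 1.97%) up to a q of 0.05, with 6 peaks of which 1 met HS and 2 met HT0. ZAT10 (AT1G27730), a zinc finger repressor, had 2.09-fold within the gene (q 0.00642), where the HS peak lay, and 1.96-fold across the gene start (q 0.0319). ORA47 (AT1G74930), an early activator of jasmonate synthesis, had 2 peaks of 2.03-fold (q 0.0145), across the start and within the annotated gene. The cold regulators CBF3 and CBF2 had promoter peaks of 2.03-fold (q 0.0145) and 1.96-fold (q 0.0319), both also met by HT0. Above the split, gained peaks lay at ZAT12, TCH4, SZF1 and CBF1, and lost ones at ZAT12, TCH4, ERF2 and ERF5.

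**Figure D5:**
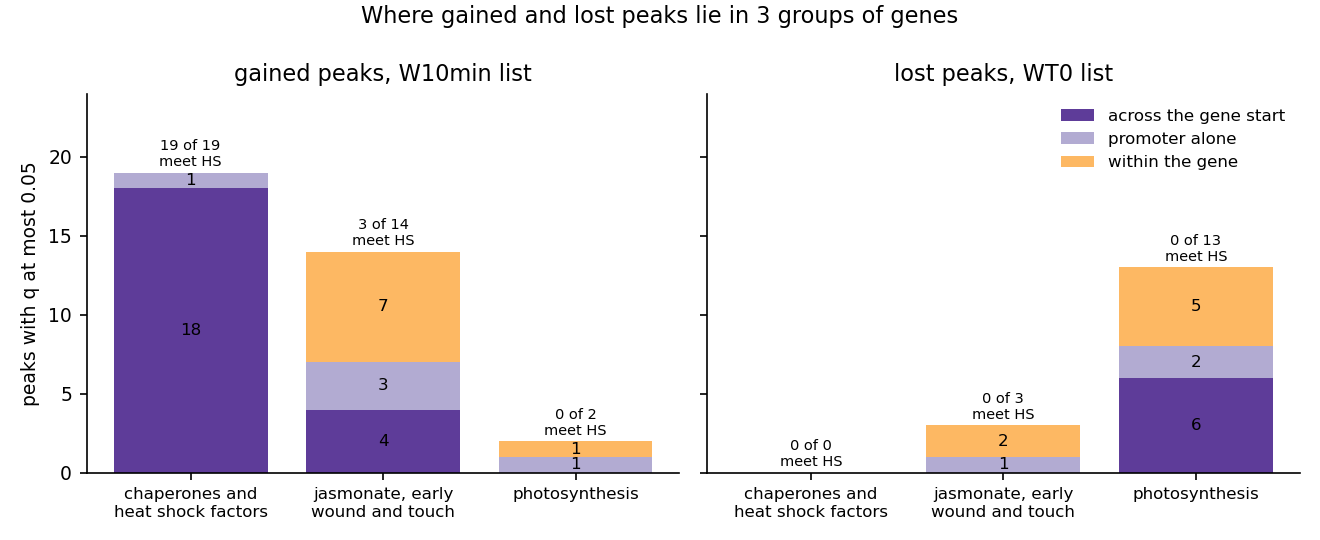
Numbers of gained W10min peaks (left) and lost WT0 peaks (right) at a q of at most 0.05 in 3 groups of genes, split by position, with the number that meets an HS peak above each bar. Of 19 gained chaperone and heat shock factor peaks 18 lie across the gene start and 19 meet HS, while of 14 gained jasmonate and early wound peaks 7 lie within genes and 3 meet HS.

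Regulators of wound-induced reprogramming also had gained peaks. Of 30 genes, 3 were gained (10.0%, all coding genes 2.23%) and 0 lost (all coding genes 1.97%) up to a q of 0.05. Of these 3 peaks 0 met any of the other 4 lists, and 215 of all 421 gained peaks at this q met none either. WOX11 (AT3G03660), which encodes a homeodomain factor of adventitious rooting, had the strongest, 2.77-fold within the gene (q 3.63e-07) at chr3:891542-892148. WIND2 (AT1G22190) had 2.03-fold in the promoter (q 0.0145), and ERF109 (AT4G34410), a jasmonate-responsive factor, 1.96-fold across the gene start (q 0.0319). WIND1 (AT1G78080), which promotes callus at wounds, had 2 gained promoter peaks with the same values, 1.89-fold and a q of 0.0674, both met by HS and 1 by W3h, and a lost peak within the gene of 1.64-fold (q 0.603). PLT7 had a gained promoter peak with a q of 0.507. WIND3 and WIND4 had no peak in either list. Of 5 seedling growth regulators, PIF5, a phytochrome-interacting factor, had a gained promoter peak of 2.03-fold (q 0.0145) beside 2 lost ones above the split, and PIF4 one of 1.82-fold (q 0.138).

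Photosynthesis genes showed the opposite count and had the highest share of lost members of the 15 lists. At a q of at most 0.05, 2 of 24 members were gained (8.33%, all coding genes 2.23%) and 11 were lost (45.8%, all coding genes 1.97%). A W10min peak of some kind named 19 members, and a WT0 peak named all 24. Only a gene with a WT0 peak can be lost, so the 1.97% of all coding genes is a low measure for these members. Of 944 coding genes with a WT0 peak at a q of at most 0.05, 541 had a lost one. Shared W10min peaks at this q named 18 members, beside 441 of all coding genes, and 19 members had more than 1 WT0 peak. Of the 11 lost members, 7 had a W10min peak, 6 of them a shared one and LHCA2 a gained one alone. With both lists limited to a q of at most 1e-05, 4 members were gained and 4 lost, and with peaks within 1000 bp taken as shared, 0 were gained and 5 lost. In all, 25 W10min peaks and 43 WT0 peaks named a member.

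Antenna genes, whose products bind chlorophyll and harvest light, were most of the lost members, and they are also most of the list. The 2 gained members were LHCA2, with a promoter peak of 2.03-fold (q 0.0145) beside a lost one of 1.94-fold (q 0.0218), and LHCA4, with a peak of 1.92-fold (q 0.042) within the gene. LHCA1 (AT3G54890) had a lost peak of 2.55-fold (q 2.92e-06) at chr3:20340773-20341244, and LHCA4 (AT3G47470) a lost one of 2.49-fold (q 7.99e-06), both across the gene start of photosystem I antenna genes. The gained and the lost LHCA4 peak lay within 200 bp of each other. With peaks within that distance taken as shared, both would count as shared. The photosystem II antenna genes LHCB4.1 (2.37-fold, q 5.57e-05), LHCB5 (2.28-fold, q 0.000186), LHCB2.2 (2.19-fold, q 0.000484), LHCB3 (1.94-fold, q 0.0218) and LHCB2.3 (1.88-fold, q 0.0456) had lost peaks. That LHCB4.1 peak lay across the start of the neighbouring gene AIRP2 and named LHCB4.1 through its promoter alone. Another lost promoter peak, which named LHCB4.1 only, had 1.88-fold (q 0.0456). The oxygen-evolving subunits PSBO1 and PSBP1 had 2.43-fold (q 2.14e-05) and 2.12-fold (q 0.002), and PSAF of photosystem I had 1.82-fold (q 0.0347). LHCB2.1, LHCB2.2 and LHCB2.3 are closely related copies, so reads may be split among them. Above the split, a gained peak lay at LHB1B1 and LHB1B2 (q 0.909), and lost ones at LHCB2.1, LHCB6, RBCS3B and RCA.

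Photosynthesis peaks of W10min and WT0 often met peaks of the later wounding lists and almost never met peaks of the heat lists. Heat list peaks elsewhere in these genes were not counted. Of the 13 lost peaks at a q of at most 0.05, 0 met HS, 0 met HT0, 2 met W3h and 5 met W24h. Counting every peak of any q that named a member, 0 of 25 W10min peaks met HS and 0 met HT0, beside 34.7% and 18.1% of all W10min peaks, while 19 met W3h and 12 met W24h, beside 21% and 12.3%. Of 43 WT0 peaks 0 met HS and 1 met HT0, beside 24.8% and 19.8% of all WT0 peaks, while 23 met W3h and 19 met W24h, beside 18% and 10.7%. Most lay within genes or across their starts, with 21 of 25 in W10min and 30 of 43 in WT0 within the gene alone. The wounding and heat lists come from separate experiments with their own untreated seedlings.

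The other strong lost peaks formed no fixed gene group, and 8 of the 16 with a q of at most 1e-05 met none of the 4 other lists. The highest was at CWLP (AT3G22120), a cell wall protein gene, with the promoter of PAC1, 3.34-fold (q 8.77e-13) at chr3:7794798-7796139, and met W3h and W24h. CYP78A9 (AT3G61880), a cytochrome P450 of seed and fruit growth, followed with a promoter peak of 3.21-fold (q 1.1e-11). The promoters of AT1G67900 and AT4G30780 had 2.91-fold each (q 4.35e-09). A peak across the start of the tubulin gene TUA5, which also names the promoter of its near-identical copy TUA3, had 2.73-fold (q 1.24e-07). AT1G56220 and AT5G25280 had 2.61-fold each (q 1.04e-06), and both met HT0, W3h and W24h. AT1G69570 and AT2G24550 with AT2G24560 had 2.55-fold, and AT3G59540 with SYN3, and AT5G61990, 2.49-fold. The AT5G61990 peak, which met none of the 4 other lists, is only 43 bases wide, so its lack of overlap says little. The promoter of AT1G43730 had 2.13-fold with a q of 2.76e-10 and met all 4 other lists. None of the 16 named a member of the chaperone and heat shock factor lists. They named only 0.0729% of all coding genes, so this says little about those lists.

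Of the gained peaks with a q of at most 1e-05, 11 met none of the 4 other lists, and they included no chaperone gene. WOX11 and AT2G45180 have been given above. The others lay at AT3G07195 with AT3G07200 (3.11-fold, q 1.07e-09), AT1G54410 with AT1G54420 (2.90-fold, q 3.78e-08), the promoters of TOM5, a mitochondrial import subunit, and AT5G08060 (2.63-fold, q 3.17e-06), the pseudogene AT1G79245 with 2 peaks (2.63-fold and 2.57-fold), and transposable element genes with 2 peaks. ERF73 (AT1G72360), an ethylene response factor of low-oxygen responses, had a promoter peak of 2.57-fold (q 9.02e-06), and its neighbour AT1G72340 had one of the same fold within the gene. ACS10 with AT1G62970 (2.84-fold, q 1.19e-07) met HT0 and none of the other lists.

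Among the strongest sites gained peaks were fewer than shared ones: 17 gained and 65 shared W10min peaks had a q of at most 1e-10. Besides the chaperones and HSFA2 given above, the shared peaks with the highest W10min folds (16, with a tie at the fifteenth) lay at AT5G64170 to AT5G64190 (5.81-fold in W10min, 2.31-fold in WT0), AT5G23480 (5.67 in W10min, 2.91 in WT0), TIN1 (5.47 in W10min, 2.49 in WT0), the NAC factor gene NAC2 (5.40 in W10min, 2.31 in WT0), AT4G00960 (5.14 in W10min, 3.85 in WT0), the AT3G20362 group (4.98 in W10min, 4.00 in WT0), and AT1G13640 and PI4K GAMMA 7 (4.93 each in W10min, 2.24 and 2.67 in WT0). All 16 met HS and W3h, beside 60 and 63 of the 65 shared W10min peaks with a q of at most 1e-10. Of 447 overlapping pairs, 228 had a q of at most 0.05 in both lists, 86 in W10min alone and 75 in WT0 alone.

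Of 10 reference genes 0 were gained and 0 lost up to a q of 0.05, a list too short to set against the 2.23% and 1.97% of all coding genes. GAPC1 had a shared peak of 2.70-fold in W10min (q 1.09e-06), which met HS, HT0 and W3h. ACT7, ACT8 and EF1A had gained peaks with q from 0.0674 to 0.27, and ACT7 a lost one with a q of 1. Up to a q of 0.05, 28.3% of gained and 23.7% of lost peaks lay across a gene start. In promoters alone lay 38.7% of gained and 53.4% of lost peaks, and 12.4% of gained and 5.26% of lost peaks touched a transposable element gene. Where they spanned a start, both sets centred slightly upstream of it, at a median of -41.5 bp for 119 gained peaks and -47.0 bp for 90 lost ones.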

How the data were processed

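Single reads of 50 bases were sequenced, per the labels; the sources used here give no exact depths. The submitters' processing notes name Bowtie2, SAMtools, MACS2 and TAIR10, with no versions. Per the labels, fastq files were concatenated, giving 1 list per condition. Per the file headers, the deposited lists hold a fold ratio over background and a −log10 q-value per peak, with the genes and promoters (up to 3001 bp) each meets; these are the authors' values. How reads with several matches were placed is not given in the sources used here.

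Rows of equal fold and q that overlapped or adjoined (gap up to 1 bp) were joined. Chromosome 2 from 3.2 to 3.65 Mb and its first 50 kb (78 peaks in each list) were left out. Peaks overlapping by 1 bp or more counted as shared. Starts were raised by 1 and may be off by 1 base. IDs were named from RefSeq (TAIR10.1, names only); 41 W10min and 38 WT0 identifiers were not in it. Members of 15 gene lists (248 genes) and all lists were chosen with earlier results of these data known, and nothing here is independent support for them. Named are genes of peaks with a q of at most 1e-05 (the first of a group), the 15 top shared and 10 top gained and lost peaks, list members with gained or lost peaks, HSFA1D, HSFA2 and WIND1 to WIND4; HIP1 and PUX5 fall under the first. Transposable element genes are only counted. Intervals are exact Clopper-Pearson at 95%. The steps were tested on simulated data. Tools were Python 3.11.15, pandas 2.3.3, numpy 2.4.6, scipy 1.17.1 and matplotlib 3.10.9. The closing section gives 10 other settings; promoter motifs were not analysed here.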

Additional observations from a re-analysis of the deposited data

How the results depend on the processing

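Of 133 values of 14 results under 10 other settings, 95 stayed within 1.5 times the main count, or within its interval for a share, and 38 moved. Taken at any q, gained peaks were fewer than lost ones (924 and 960, and 1341 and 1356 genes), but more with both lists limited by q, with equal numbers and, for peaks, with unjoined rows (genes 1388 and 1390), so this order depends on the setting. No paired analysis was possible because each condition has 1 ChIP and no test. Leaving out a replicate was likewise not possible, using both untreated lists as control gives no value for lost peaks, and the motif settings were not run. With both lists limited to a q of 0.05, gained and lost peaks numbered 505 and 455 and their genes 719 and 636. At 1e-05 those were 133 and 40 peaks (counted the same under the 0.05 split) with 198 and 55 genes. With 681 peaks per list they were 472 and 471 peaks, and 700 and 662 genes. Unjoined rows gave 1487 gained and 1440 lost, of which 711 and 583 had a q up to 0.05. Chaperone and heat shock factor genes with a lost peak numbered 6 with a 50% reciprocal overlap and 1 at 1e-05, against 0. Jasmonate and early wound genes with a gained peak numbered 1 at 1e-05 and 6 in promoter rows only, and with a lost peak 5 at 0.05 in both lists, 1 at 1e-05, 5 with equal numbers and 1 in promoter rows. Photosynthesis genes with a gained peak numbered 4 with reciprocal overlap, 1 within 200 bp, 0 within 1000 bp (a distance chosen after seeing the data), 6 at 0.05, 4 at 1e-05, 6 with equal numbers and 1 in promoter rows. Those with a lost peak numbered 5 within 1000 bp and 4 at 1e-05, so at 1e-05 gained and lost were equal. The share that met HS was 76.7% for gained and 42.5% for lost peaks at 1e-05, 43.9% for gained unjoined rows and 19% for lost peaks with reciprocal overlap. The cause of these moves was not tested. The lists hold no depth per peak.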

Other observations

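Many folds in both lists were multiples of 1 step. In W10min 86.8% of peaks lay within 0.0001 of a multiple of 0.0675, and in WT0 88.7% lay within it of a multiple of 0.0607, while of peaks at transposable element genes 15.4% and 18.4% did. This is why unrelated peaks share a fold and a q. A q of 1 was listed for 7.75% of W10min peaks and 14.3% of WT0 peaks.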
